A study of Drosophila melanogaster with 2 samples.

Results

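Here 4 transcripts, each shared by 2 genes, were followed in RNA from the brains of Drosophila melanogaster larvae. They are FBtr0071140 (ND-MNLL with CG45089), FBtr0071676 (Tim10 with CG42497), FBtr0074991 (Mettl5 with CG42374) and FBtr0071672 (Ppcdc with CG42496). The table lists 15456 transcript IDs, of which 8140 had a ratio on both arrays, and all 4 of these transcripts were among the 8140. They were chosen on the very ratios reported below, since IDs listed for 2 genes had drawn attention by their low values. Their ratios are therefore a description and no test was made on them.

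All RNA came from larvae of 1 genotype, which carried repo-GAL4 and UAS-UPRT. The repo driver places uracil phosphoribosyltransferase in glia, and this enzyme lets cells build 4-thiouracil into the RNA they make. Larvae aged 64 to 88 h received 4-thiouracil for 8 h, and brains were taken at 72 to 96 h. On each of 2 arrays, described as biological replicates, 50 ng of tagged RNA carried Cy5 and 200 ng of untagged RNA from such brains carried Cy3. The series given here holds no array from larvae without UPRT or without 4-thiouracil and none with the dyes exchanged. A difference between cell types, a difference in the newly made share of a transcript, carry-over in the purification and a dye effect of a probe cannot be told apart in any ratio below. As in any tissue extract, fewer cells of a type and less RNA per cell cannot be told apart either.

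Most eukaryotic messenger RNAs carry a single protein-coding reading frame that yields a protein. In some fly genes an upstream open reading frame (uORF) on the same mRNA encodes a conserved peptide of its own, and annotation then gives a gene to each frame of the shared, dicistronic transcript. The gene table of RefSeq, for the assembly Release 6 plus ISO1 MT, carries each of the 4 IDs inside synonyms of both genes, once with the ending uORF and once with mORF, taken here as the main open reading frame. CG45089, CG42497, CG42374 and CG42496 hold the uORF entries. ND-MNLL, Tim10, Mettl5 and Ppcdc hold the mORF entries. Both genes of a pair had the same start and end in that table in 4 of 4 pairs. One ratio thus stands for the shared transcript, and it cannot be divided between the 2 reading frames.

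The 4 main reading frames serve different parts of cell metabolism. ND-MNLL, which the gene table also lists as NDUFB1, is an accessory subunit of respiratory complex I, the entry point of electrons from NADH in mitochondria. Tim10 is a small chaperone of the mitochondrial intermembrane space that escorts hydrophobic proteins towards the inner membrane. Ppcdc decarboxylates phosphopantothenoylcysteine, a step of coenzyme A synthesis. Mettl5 belongs to the methyltransferases, and its mammalian counterpart modifies an adenosine of the small ribosomal subunit's RNA.

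Values are the deposited log ratios, taken as log2 of tagged over untagged RNA. That direction is likely, not certain: tagged RNA comes first in the titles and is called the test. If the ratios ran the other way, lower would read higher in every sentence. No source used here names the base of the logarithm.

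The shared transcripts that hold ND-MNLL and Tim10 had the lowest ratios of the 4, and the one that holds Ppcdc had the ratio nearest to 0. All 4 were below 0 on both arrays, as were 3420 of the 8140 measured IDs (42%). Their median log2 ratio was -0.91, against 0.12 over all measured IDs. Since the choice of these IDs rested on such values, neither figure says anything more about shared transcripts as a kind.

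FBtr0071140, shared by the complex I gene ND-MNLL and CG45089, had log2 ratios of -1.63 and -1.89 on arrays 1 and 2. Both were thus well below 0 and below every value of the other 3 transcripts. The mean was -1.76 ± 0.18 (SD, n = 2), which corresponds to a 3.39-fold higher level in untagged RNA, or 3.1-fold and 3.71-fold on the single arrays. Only 3.81% of measured IDs, 310 of 8140, had a lower mean ratio. This transcript also showed the widest gap between arrays among the 4, at -0.26, and 78.3% of measured IDs had a smaller gap in size.

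FBtr0071676, shared by the import chaperone gene Tim10 and CG42497, had log2 ratios of -1.09 and -1.21. The arrays lay close together and both were past -1, the limit for a 2-fold difference. The mean of -1.15 ± 0.08 (SD, n = 2) corresponds to a 2.22-fold higher level in untagged RNA. Lower mean ratios were found for 9.32% of measured IDs.

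FBtr0074991, shared by the methyltransferase gene Mettl5 and CG42374, had log2 ratios of -0.58 and -0.75. It was lower in tagged RNA on both arrays but reached 2-fold on neither. The mean was -0.67 ± 0.12 (SD, n = 2), a 1.59-fold higher level in untagged RNA, and 20.6% of measured IDs had lower means. On the first array the transcript missed the 1.5-fold limit, a log2 ratio of -0.585, by less than the rounding of the deposited values.

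FBtr0071672, shared by the coenzyme A gene Ppcdc and CG42496, had log2 ratios of -0.42 and -0.47. These were the smallest in size of the 4 on either array and also the closest to each other. The mean of -0.45 ± 0.04 (SD, n = 2) corresponds to a 1.36-fold higher level in untagged RNA. With 28.0% of measured IDs lower, this transcript lay above the lower quartile of all measured IDs, -0.54. The other 3 transcripts had means below that quartile.

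**Figure D1:**
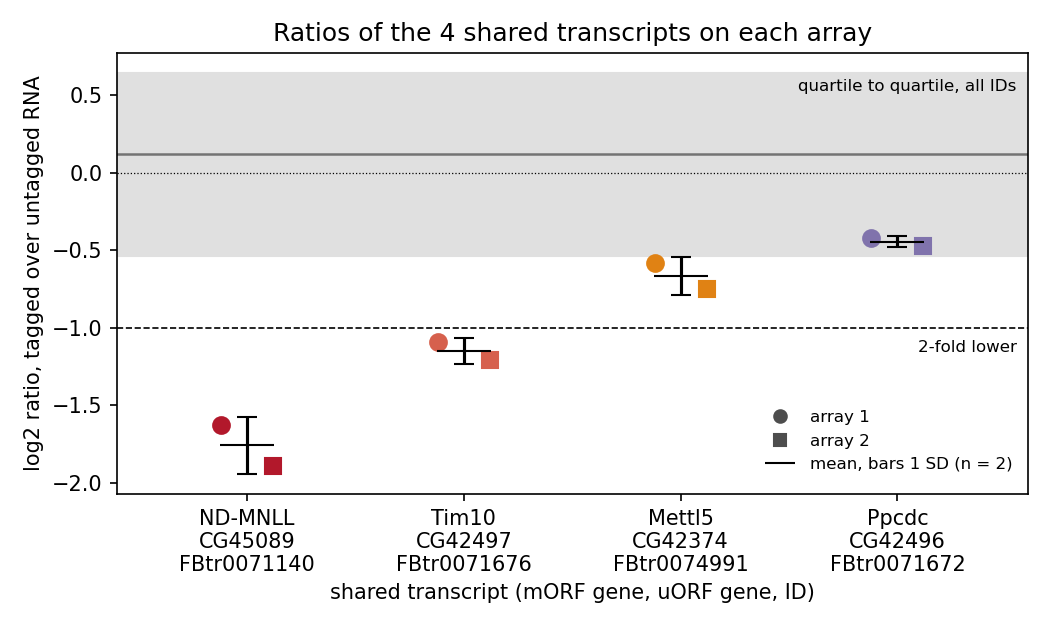
Log2 ratio of tagged over untagged RNA (vertical axis) for each of the 4 shared transcripts (horizontal axis), with circles for the first array, squares for the second, and a black bar with whiskers for the mean and 1 SD (n = 2). The grey band runs from the lower to the upper quartile of all 8140 measured IDs around their median (grey line). ND-MNLL at -1.76 and Tim10 at -1.15 lie below the dashed line of a 2-fold difference, and Ppcdc at -0.45 lies inside the band.

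At least 2-fold lower on both arrays were 2 of the 4 transcripts, those of ND-MNLL and Tim10, against 864 of all 8140 IDs (10.6%). The count was the same at 1.5-fold, where 20.9% of all IDs passed. At 3-fold, ND-MNLL alone passed, with 4.1% of all IDs. The 2-fold count depends on the unnamed base of the logarithm: it was also 2 with the values read as natural logs, where 1416 of all IDs passed (17.4%), and 4 with the values read as log10, where 2494 passed (30.6%). With 4 transcripts chosen for low ratios, these shares give the scale of the values and no evidence about the set.

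The order ND-MNLL, Tim10, Mettl5, Ppcdc, from lowest to highest, was the same on each array. The 2 values of one transcript never overlapped with those of the next, though there were only 2 arrays. Over all measured IDs, the arrays differed by a median of 0.14 in size, and the SD of array 2 minus array 1 was 0.248. Between ND-MNLL and Tim10 the log2 ratios differed by 0.54 and 0.68 on arrays 1 and 2, and between Tim10 and Mettl5 by 0.51 and 0.46. Mettl5 and Ppcdc were the closest neighbours in this order, 0.16 and 0.28 apart on arrays 1 and 2. Because the transcripts were chosen on these values, none of the differences was tested. The widest difference, between ND-MNLL and Ppcdc, was 1.21 and 1.42.

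Every one of the 4 transcripts was lower on the second array than on the first, with a difference (second minus first) of -0.05 for Ppcdc, -0.12 for Tim10, -0.17 for Mettl5 and -0.26 for ND-MNLL. The same held for 65.6% of the 3681 measured IDs with a mean below 0, and the ratios of all measured IDs spread more on the second array (SD 0.91) than on the first (SD 0.86). The part of this wider spread in the members' differences was not tested.

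**Figure D2:**
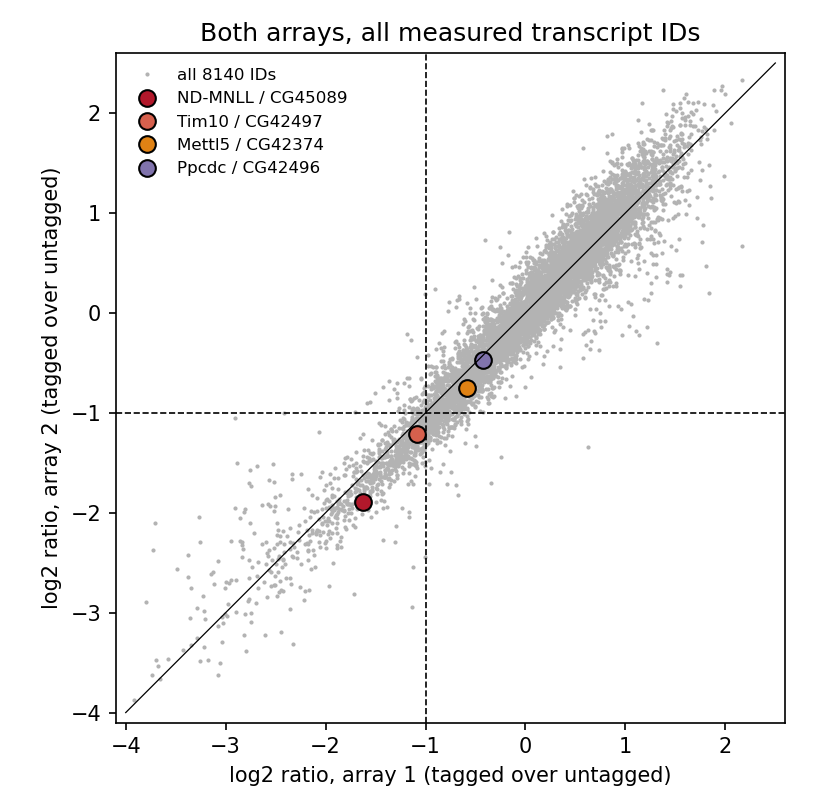
Log2 ratio of tagged over untagged RNA on the first array (horizontal axis) against the second (vertical axis), with 1 grey point for each of the 8140 measured IDs, the 4 shared transcripts in colour, the line of equal values and dashed lines at a 2-fold difference. The 4 transcripts lie just under the line of equal values, with ND-MNLL at -1.63 and -1.89 furthest down.

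Of the 4 transcripts, 2 come from adjacent genes. In the gene table the pair of Tim10 and CG42497 and the pair of Ppcdc and CG42496 are next to each other, with no other gene lying wholly between them. Although they adjoin, their ratios differed by 0.67 and 0.74 on arrays 1 and 2. ND-MNLL with CG45089 lies between Nek2 and p115, and no other gene overlaps it. The Tim10 pair is overlapped by CG10307, the Ppcdc pair by CngB, and the Mettl5 pair by Max, CG45081 and Aldh7A1. The probes' sequences were not used here, so a part of these genes in the 3 ratios was not tested.

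The table holds 22 IDs listed for 2 genes, all with a uORF and an mORF entry, and 18 of them were measured on both arrays. The 14 measured beside the 4 described here had a median log2 ratio of -0.40 and ran from -1.44 to 0.48. Among these 14, 9 were below 0 on both arrays, against 42.0% of all measured IDs. On both arrays 3 were at least 2-fold lower, against 10.6% of all measured IDs. None was at least 2-fold higher on both, as were 623 of all 8140. Since IDs listed for 2 genes had drawn attention by low values, these counts are no separate evidence about shared transcripts. ND-MNLL was the lowest of all 18, Tim10 the fourth, Mettl5 the eighth and Ppcdc the tenth. The 4 thus held places among the lowest 10 of the 18. The highest of all 18 was the transcript of CG8026 with CG45085, at 0.35 and 0.61.

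For each of the 4, the nearest of the 28 other measured IDs with a gene name was found by the straight-line distance over the 2 log2 ratios. Tim10 was nearest to FBtr0084974, shared by PIG-P and Tcs6, whose values of -1.02 and -1.20 gave a distance of 0.071. Ppcdc was nearest to FBtr0077747, shared by Rad1 and Sws1, at -0.37 and -0.51 and a distance of 0.064. Mettl5 was nearest to FBtr0081122, shared by CG10570 and CG42502, at a distance of 0.13. ND-MNLL had no close neighbour in this set: FBtr0079037, shared by CG31917 and Tfb5, was nearest at a distance of 0.515, with values of -1.47 and -1.40. Among all measured IDs, most of them unnamed, between 42 and 317 lay nearer to a member than the named one did.

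**Figure D3:**
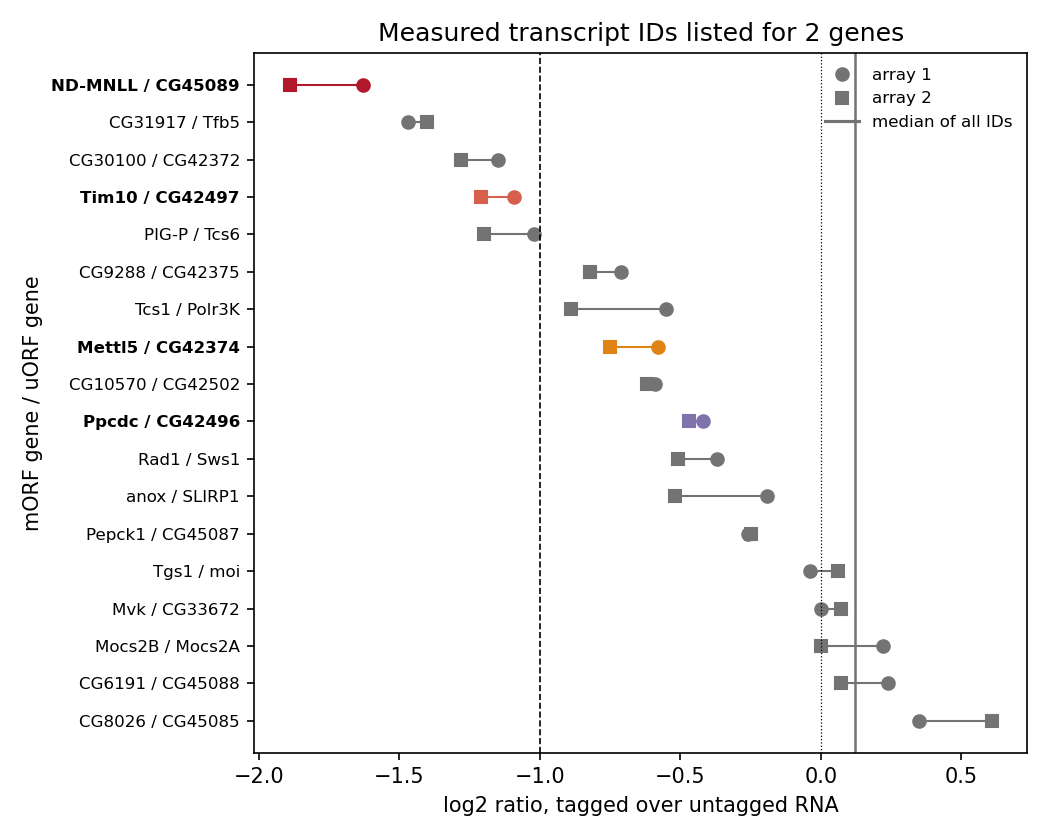
Log2 ratio of tagged over untagged RNA (horizontal axis) for the 18 measured IDs listed for 2 genes (vertical axis, mORF gene before uORF gene), ordered by mean, with circles for the first array and squares for the second. The 4 described transcripts are in colour and bold, from ND-MNLL at the lowest place to Ppcdc at the tenth. The grey line marks the median of all measured IDs at 0.12 and the dashed line a 2-fold difference.

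Partner genes of the 4 proteins could not be set beside them. Of 34 complex I genes, ND-MNLL was the 1 whose name the gene table pairs with an ID of the array. The same held for Tim10 among 9 genes of mitochondrial protein import found in the gene table (of 12 looked for), Ppcdc among 4 of coenzyme A synthesis, and Mettl5 among 8 for methyltransferases of ribosomal and transfer RNA. Of 10 glial, 10 neuronal and 4 neuroblast marker genes, 0 were paired with an ID, so the labelled cell type was not checked against its markers here.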

How the data were processed

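Tagged and untagged larval brain RNA was compared on 2 custom Agilent arrays with 2 dyes, per the labels' protocols. The authors deposited 1 log ratio per transcript ID and array, in a table used here as log2 ratios. What base, scanner program, normalization, filter or combination of spots the authors used is not given in the sources used here. Having only 2 arrays limits the precision, and the table holds no intensities.

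Ratios were used as deposited. Means, SDs, the share of IDs with a strictly lower ratio, and counts at least 1.5-, 2- or 3-fold lower on both arrays were computed over the 8140 IDs with both values, with Python 3.11.15, numpy 2.4.6 and pandas 2.3.3. Of these steps, the 2-fold counts and the share of lower IDs were tested on simulated data. The SDs and the other fold limits were not. No significance test was run, because the transcripts were chosen on this comparison, and the 2 arrays form 1 group. Whether the replicates came from separate animals is known only from the word biological.

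Gene names came from IDs inside the synonyms of the RefSeq gene table, which names 22 IDs for 2 genes and 13 for 1. No source names the array's genome build, so no coordinates are printed. The members and lists were chosen with earlier results of these data known. Named are the 4 members, both genes of each, and the nearest other named ID. CG8026 with CG45085, and the neighbouring or overlapping genes, were added after values were seen. Alternatives changed the centring, the scaling, the base, the fold limit, the IDs ranked and the arrays used.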

Additional observations from a re-analysis of the deposited data

How the results depend on the processing

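No mean ratio of the 4 transcripts changed sign, but none of the alternatives run could have changed one. Both values of each transcript were negative, and centring took away positive medians (0.11 and 0.1 on arrays 1 and 2). Changes of base or spread only multiply by a positive number. Centring each array on its median took Ppcdc to -0.55, Tim10 to -1.26 and the median of the 4 to -1.01. Read as natural logs, the mean log2 ratios became -2.54 for ND-MNLL, -1.66 for Tim10, -0.96 for Mettl5 and -0.64 for Ppcdc, with a median of -1.31. Agilent's own software writes log10 ratios, so that reading was added after the data were examined. It gave -5.85, -3.82, -2.21 and -1.48 in the same order, or 57.5-fold, 14.1-fold, 4.62-fold and 2.79-fold higher in untagged RNA, so that 4 of the 4 transcripts and 2494 of all IDs were at least 2-fold lower on both arrays. Ranked among IDs measured on at least 1 array, the share of IDs with a lower mean was 4.42% for ND-MNLL, 10.1% for Tim10 and 28.8% for Ppcdc, and without exact zeros it was 28.2% for Ppcdc. On 1 array at a time the shares ran from 3.30% to 4.15% for ND-MNLL, 9.35% to 9.59% for Tim10, 19.2% to 22.3% for Mettl5 and 27.9% to 28.0% for Ppcdc. At 3-fold, 1 of the 4 transcripts and 334 of all IDs were lower on both arrays. All IDs counted 1702 at 1.5-fold and 1416 with natural logs, while 2 of the 4 transcripts passed under both. Each ratio already sets tagged against untagged RNA on the same array. No further paired analysis was run, because the arrays form 1 group and no test was made on transcripts chosen by these values. Other background corrections, dim-probe filters and a slide block were not run, since only ratios were used, and how far each spot stood above background is unknown.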
